A study of Mus musculus with 3 samples.

Results

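The genes described here serve the entry of proteins into the endoplasmic reticulum (ER), their folding there and the unfolded protein response. They were chosen by name, and are 40 of the 25759 genes counted in each library. They comprise 3 stress sensors, 3 transcription factors, 9 chaperones of the HSP70 and HSP90 systems with their cofactors, 2 lectin chaperones, 4 protein disulfide isomerases, 4 genes of ER-associated degradation, 4 of the translocation channel, 4 of the translocon-associated protein (TRAP) complex, 3 of the signal peptidase, 2 of the signal recognition particle and 2 receptors that return escaped ER proteins. An RPKM (a level that divides a gene's exon reads by the length of its exons and the size of the library) above 5 in at least 1 library was reached by 37 of them, and by 7017 of all genes. *Ern1*, *Eif2ak3* and *Atf6*, the 3 sensors, stayed below this level.

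Proteins bound for the cell surface or for secretion are threaded into the ER as they are made, lose their signal peptide, receive sugars and disulfide bonds and are held by chaperones until folded. When unfolded proteins accumulate, IRE1 (*Ern1*) splices the *Xbp1* mRNA, PERK (*Eif2ak3*) slows translation and favours ATF4 and then CHOP (*Ddit3*), and ATF6 is cut to a transcription factor, and these branches raise chaperone and degradation genes. Blimp-1 and XBP1 are best known in this setting from plasma cells, where they accompany the build-up of the secretory apparatus, while T cells use the same genes at a lower demand for their cytokines and receptors.

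The libraries came from follicular regulatory T (TFR) cells, Foxp3+ T cells of the B cell follicle, 1 library for each of 3 genotypes. N was from Nfatc1fl/fl.Prdm1gfp/+.FIC mice, in which *Nfatc1* is floxed. αA was from Nfatc1caaA.Prdm1gfp/+.FIC mice, with a constitutively active αA isoform of NFATc1. PαA was from Nfatc1caaA.Prdm1gfp/fl.FIC mice, with the same NFATc1 and a floxed *Prdm1*, the gene of Blimp-1. All 3 carried a gfp allele of *Prdm1* and FIC, a Cre recombinase expressed from *Foxp3*, so that N differs from an unmodified mouse too, and FIC is active in some Foxp3-negative T cells as well. The C57BL/6J mice, male or female, received 125 µg of the hapten-carrier antigen NP-KLH in alum i.p. and a boost on day 7. On day 10, CD4+ cells of spleen and mesenteric lymph nodes (mLN) were enriched with beads and sorted as B220-, CD4+, Blimp-GFP+, CXCR5+ and GITRhi. The sources used here do not give ages or the number of mice behind a library. With 1 library a genotype there is no spread between mice and no test, so the intervals below cover counting error of reads that can be PCR copies, and nothing else.

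The libraries held between 23269443 and 27637953 exon reads. *Nfatc1* stood at an RPKM of 63.6 in N, 62.9 in αA and 32.4 in PαA, an order that goes against genotypes meant to lack NFATc1 in N and to add it in αA and PαA. The count runs over all exons, those outside the floxed part included, so it does not show whether that part was lost in N. The log2 ratio of *Nfatc1* was -0.02 for αA against N and -0.96 for PαA against αA, whose labels give the same NFATc1. The reason for this order was not tested, and N, αA and PαA name labelled libraries throughout. *Prdm1* was at 25.6, 24.9 and 10.0, in the order its label gives. All 10 T cell and TFR markers were above 5 in every library, with summed RPKM of 2067, 1908 and 1284. For PαA against αA all 10 had a negative log2 ratio, at a median of -0.54. This list includes *Prdm1*, at -1.31, which is floxed in PαA by label, so its ratio is no readout of cell type. *Cd3e* and *Cd4* were at -0.46 and -0.22. Whether the libraries differed in T cell content was not tested. Ribosomal protein genes took 13.6%, 15.4% and 19.8% of the exon reads. B cell markers summed to 20.7, 15.0 and 16.1, and myeloid markers to 321, 251 and 340.4 (10 of 11 genes usable). CD8 T and NK markers summed to 86.2, 31.7 and 33.3, with most of the N value from *Gzma*, at 61.8, 3.87 and 4.92. Of the others, *Cd8a*, *Klrb1c* and *Klrk1* were lowest in N, *Prf1* and *Eomes* in αA, and *Cd8b1* and *Ncr1* in PαA. Plasma cell and immunoglobulin markers, which also use many of the genes described here, summed to 55.3, 74.0 and 122, from 6 of 13 genes because 7 immunoglobulin genes had no exon length. Scaling with TMM factors, which discount a few very abundant transcripts, added 0.16 to every log2 ratio of αA to N, 0.07 to PαA against αA and 0.23 to PαA against N, and directions are given below against these shifts.

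A well-known entry point to these genes is the ER stress response element (ERSE), which is CCAAT, 9 bases and CCACG, and its relative ERSE-II, which is ATTGG, 1 base and CCACG. Promoter windows of 300 bases, from 250 before to 50 after the RefSeq start on GRCm38.p6, were at hand for 32 of the 40 genes and were searched on both strands. An ERSE was found in 8 of the 32 (25%) and in 39 of all 32851 windows (0.119%), and an ERSE-II in 2 of the 32 and in 12 of all windows. The elements are printed with up to 5 flanking bases on each side, 5′ to 3′ on the strand of the gene, with the defined bases of the element in capitals, because they are the regulatory letters that these members share. Where the element lies on the other strand, CGTGG comes first and ATTGG last.
*Hspa5*, chr2:34772020-34772048, plus strand: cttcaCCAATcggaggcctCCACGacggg
*Hsp90b1*, distal element, chr10:86705633-86705661, minus strand: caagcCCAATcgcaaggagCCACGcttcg
*Hsp90b1*, proximal element, chr10:86705528-86705556, minus strand: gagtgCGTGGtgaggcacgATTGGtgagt
*Calr*, chr8:84847070-84847098, minus strand: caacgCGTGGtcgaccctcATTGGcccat
*Canx*, chr11:50325795-50325823, minus strand: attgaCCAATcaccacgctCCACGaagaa
*Pdia6*, chr12:17266486-17266514, plus strand: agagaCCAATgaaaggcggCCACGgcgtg
*Dnajc3*, chr14:118937822-118937850, plus strand: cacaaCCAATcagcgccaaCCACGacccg
*Creld2*, chr15:88819515-88819543, plus strand: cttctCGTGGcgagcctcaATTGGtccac
*Syvn1*, chr19:6046527-6046555, plus strand: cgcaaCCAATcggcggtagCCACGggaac
*Herpud1* (ERSE-II), chr8:94386372-94386392, plus strand: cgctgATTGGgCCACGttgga
*Dnajb11* (ERSE-II), chr16:22857847-22857867, plus strand: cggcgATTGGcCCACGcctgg

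The 9 ERSE copies began between 212 and 44 bases before the RefSeq start. The ERSE-II of *Herpud1* began 52 bases before it, and that of *Dnajb11* lay just after it. The whole stretch of 250 bases before the start is shown for *Creld2* and for *Canx*. By RPKM the level of *Creld2* was highest in PαA and that of *Canx* was lowest there. This pair is not an even split of directions. Of the 10 members with an ERSE or ERSE-II, 9 had a negative log2 ratio for PαA against αA, *Creld2* being the exception. Against genes of like length this ratio was -0.01 for *Canx*.
*Creld2*, chr15:88819396-88819645, plus strand: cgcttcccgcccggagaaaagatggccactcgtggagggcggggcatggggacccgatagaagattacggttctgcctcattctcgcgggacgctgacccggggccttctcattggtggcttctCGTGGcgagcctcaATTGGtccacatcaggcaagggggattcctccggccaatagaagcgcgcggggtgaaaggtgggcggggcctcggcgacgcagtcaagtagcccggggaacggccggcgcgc
*Canx*, chr11:50325674-50325923, minus strand: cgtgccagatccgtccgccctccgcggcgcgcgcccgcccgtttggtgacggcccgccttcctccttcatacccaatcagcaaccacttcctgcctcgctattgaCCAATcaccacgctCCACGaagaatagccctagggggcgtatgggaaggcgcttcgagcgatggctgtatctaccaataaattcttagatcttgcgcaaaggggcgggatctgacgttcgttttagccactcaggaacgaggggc

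Other motifs were searched in the same windows, with members counted per gene, here and above, and the background counted per window. The unfolded protein response element core TGACGTGG was in 0 of the 32 (0.676% of all windows), and the ATF4-CHOP composite TGATGNAAT in 0 of the 32 (0.965% of all). Motifs this rare would be found in few or none of 32 members in any case, so the 0 does not compare frequencies. The Blimp-1 core AGNGAAAG was in 2 of the 32, *Sec61b* and *Syvn1*, and in 8.63% of all windows. The 10 members with an ERSE or ERSE-II had medians of -0.07 (αA to N) and -0.16 (PαA to αA) on the log2 scale. In the 20 expressed members whose windows held neither, these were -0.02 and -0.03. With TMM factors the medians were 0.09 and -0.09 in the 10 and 0.14 and 0.04 in the 20, and against genes of like length 0.08 and -0.10 in the 10 and 0.06 and 0.00 in the 20. For PαA against N they were -0.29 and 0.03 by RPKM. A match is a description of letters in this window, and no factor's binding was measured here.

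The genes were abundant in every library. Together they took 233660, 202471 and 174801 exon reads, which is 0.845%, 0.835% and 0.751% of the exon reads. Their median RPKM was 48.0, 50.7 and 50.8, beside 15.3, 13.7 and 13.3 for all expressed genes, and 34, 35 and 34 of the 40 lay above that median. In N, αA and PαA alike the highest level belonged to *Calr*, which encodes the lectin chaperone calreticulin, at 478, 444.5 and 403, and *Pdia3*, the disulfide isomerase that works with it, followed in N and αA at 255 and 244. In PαA the small channel subunit *Sec61b* was second at 238, ahead of *Pdia3* at 219. *Hspa5*, which encodes the main ER HSP70 protein BiP, was at 189, 189.7 and 139, and the sensors were lowest in all 3 libraries. In bulk RNA, fewer cells of a type and less RNA per cell cannot be told apart.

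**Figure D1:**
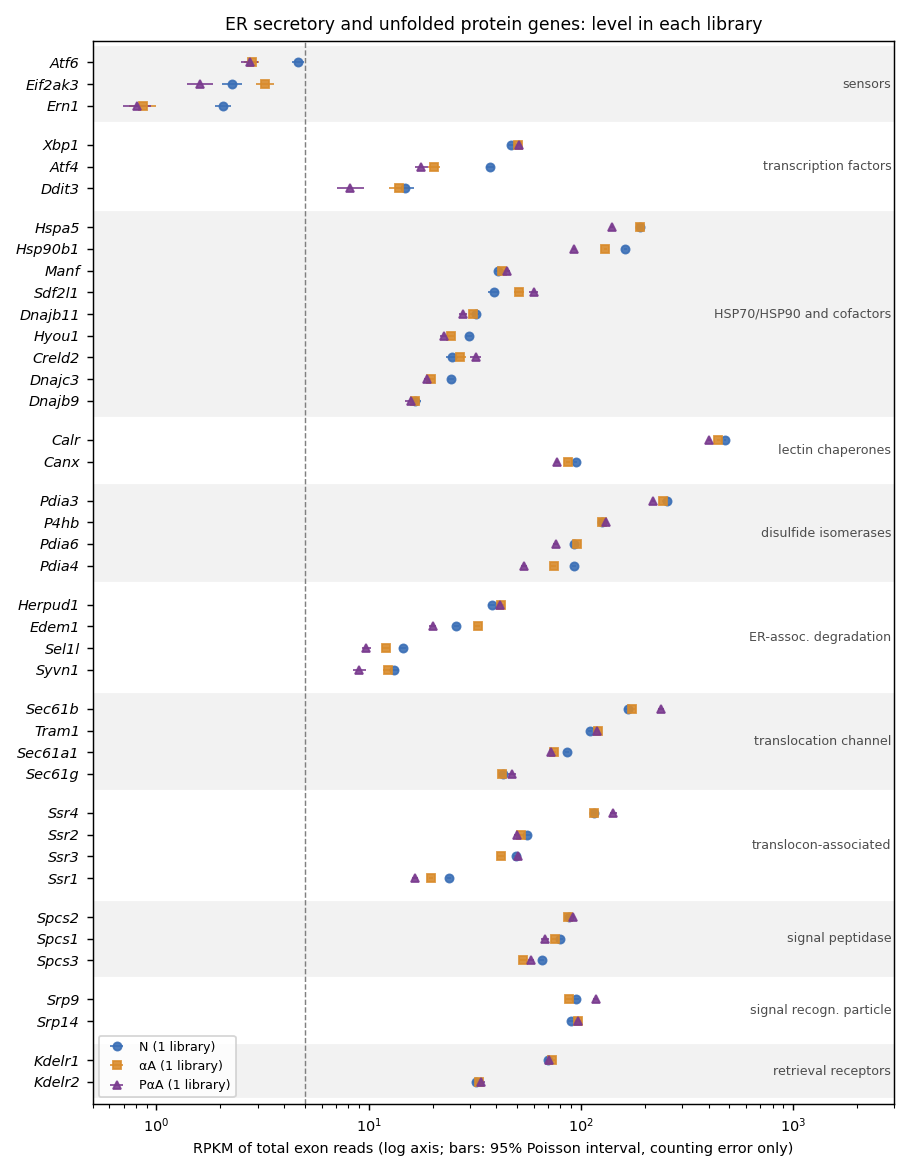
RPKM of each of the 40 genes (log axis) in the libraries N, αA and PαA, ordered by role. Bars are Poisson intervals of the read counts and the dashed line is an RPKM of 5. *Calr* stands at the right with 478, 444.5 and 403, the 3 sensors lie left of the line in all libraries, and most genes have their 3 points close together.

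The differences between libraries were mostly small. Between αA and N, 0 of the 37 expressed members were higher by more than 1.5-fold (3.01% of all expressed genes), 1 was lower by more than 1.5-fold (10.9%), and 0 were past 2-fold (4.01%). Between PαA and αA, which share the αA library with the comparison before, 0 were higher by more than 1.5-fold (5.43%), 2 lower (9.15%) and 0 past 2-fold (4.47%). Between PαA and N, 1 was higher by more than 1.5-fold (5.57%), 4 lower (22.3%) and 1 past 2-fold (10.2%). The median log2 ratio of the members was -0.04 for αA against N, -0.06 for PαA against αA and -0.17 for PαA against N. All expressed genes had medians of -0.14, -0.06 and -0.19. With TMM factors the members' medians were 0.12, 0.01 and 0.06, beside 0.03, 0.01 and 0.05.

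Which library held the highest level depended on the scale. By RPKM it was N for 20 of the 40 genes, αA for 8 and PαA for 12, and the lowest was PαA for 23. Of all expressed genes, 54.6% were highest in N, 18.3% in αA and 27.1% in PαA, and 50.4% were lowest in PαA. With TMM factors the counts were 10, 11 and 19, beside 33.2%, 25.9% and 40.9% of all expressed genes.

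**Figure D2:**
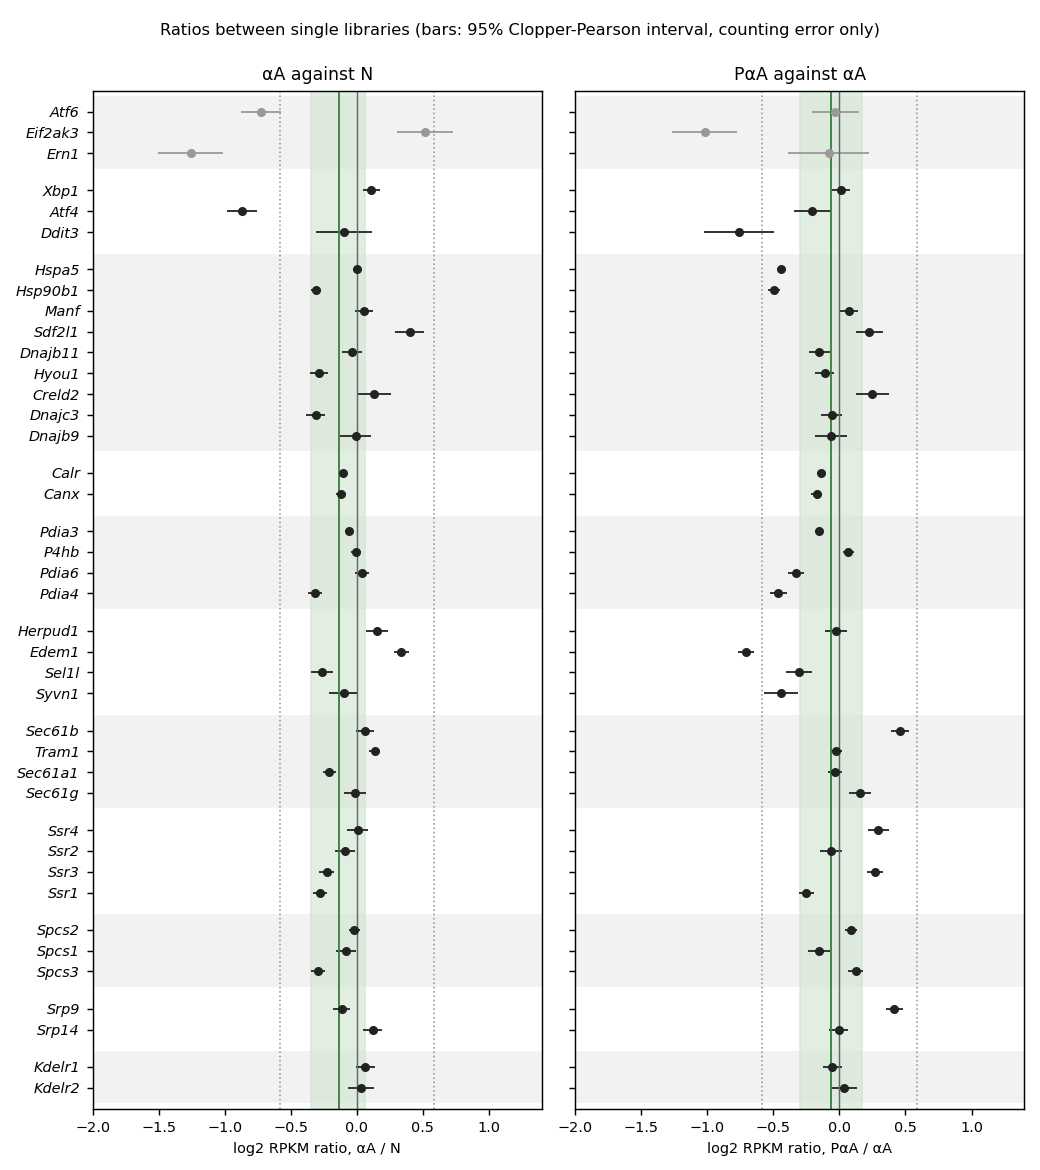
log2 RPKM ratio of each gene for αA against N (left) and PαA against αA (right), with Clopper-Pearson intervals, grey for genes below an RPKM of 5. The green line and band are the median and the middle quartiles of all expressed genes and dotted lines mark 1.5-fold. *Atf4* at -0.87 on the left, and *Ddit3* at -0.76 and *Edem1* at -0.71 on the right, are the black points beyond the dotted lines.

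The sensors were low, and not all highest in the same library. *Ern1* (chr11:106394650-106487852, minus strand), which encodes IRE1, was counted with 498, 191 and 169 exon reads in N, αA and PαA, which is an RPKM of 2.05, 0.86 and 0.81. N alone was high, and the log2 ratio of αA to N was -1.26 (-1.50 to -1.01), or -1.10 with TMM factors. *Atf6*, the sensor that is itself cut to a transcription factor, was at 4.65, 2.81 and 2.75, again highest in N, with a log2 ratio of -0.73 (-0.88 to -0.58) for αA against N. Both genes have long exons, and against genes of like exon length the αA to N ratios of *Ern1* and *Atf6* were -0.88 and -0.39. For both genes αA and PαA were alike within counting error, at -0.08 (-0.39 to 0.23) and -0.03 (-0.21 to 0.15).

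*Eif2ak3*, which encodes PERK, had another order. Its RPKM was 2.28 in N, 3.25 in αA and 1.61 in PαA, so that αA was the highest. The log2 ratio was 0.51 (0.30 to 0.73) for αA against N and -1.02 (-1.27 to -0.77) for PαA against αA, past 2-fold but from 429 and 198 reads at a level below 5. The direction of PαA against αA was kept with TMM factors (-0.95) and against genes of like exon length (-0.84).

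Among the transcription factors, *Atf4* and *Ddit3* differed and *Xbp1* hardly did by RPKM. *Atf4* (chr15:80255184-80257540, plus strand), the factor of amino acid shortage and of the PERK branch, had an RPKM of 37.3 in N, 20.4 in αA and 17.7 in PαA, from 1909, 956 and 776 reads. N stood apart from both other libraries, with a log2 ratio of -0.87 (-0.99 to -0.76) for αA against N and -1.08 (-1.20 to -0.95) for PαA against N. The values with TMM factors were -0.71 and -0.85, so the lower level stayed but the ratio of PαA to N no longer passed 2-fold.

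*Ddit3* (chr10:127290774-127296288, plus strand), which encodes CHOP, was at 14.9 in N, 13.9 in αA and 8.21 in PαA, from 393, 337 and 186 reads. Here PαA stood apart, at a log2 ratio of -0.76 (-1.03 to -0.50) against αA, while αA against N was within counting error at -0.10 (-0.31 to 0.12). The PαA ratio was -0.69 with TMM factors and -0.95 against genes of like exon length. *Xbp1*, the target of IRE1 splicing, was at 46.7, 50.4 and 50.9, with log2 ratios of 0.11 (0.04 to 0.18) and 0.01 (-0.05 to 0.08). With TMM factors these ratios of *Xbp1* were 0.27 and 0.08. Counts per gene do not separate spliced from unspliced *Xbp1* mRNA.

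The large chaperones of the ER lumen were lowest in PαA. *Hspa5* (chr2:34771970-34777547, plus strand) was counted with 21182, 19430 and 13360 reads. Its RPKM, given above, was the same in N and αA, at a log2 ratio of 0.00 (-0.03 to 0.03). It was lower in PαA, at -0.44 (-0.48 to -0.41) against αA. With TMM factors the 2 ratios of *Hspa5* were 0.16 and -0.38, and against genes of like length 0.16 and -0.31. *Hsp90b1* (chr10:86690209-86705509, minus strand), the ER HSP90 protein, was at 162 in N, 131 in αA and 92.6 in PαA, with no libraries alike. Its log2 ratios were -0.31 (-0.35 to -0.27) and -0.50 (-0.54 to -0.45), and -0.81 (-0.85 to -0.77) for PαA against N, beyond 1.5-fold. Both differences of *Hsp90b1* kept their sign on every scale computed, with -0.15 and -0.43 with TMM factors and -0.20 and -0.44 against genes of like length.

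Among the cofactors, *Sdf2l1* had the largest ratio upward. *Sdf2l1* (chr16:17130138-17132383, minus strand), a partner of BiP and its J-domain proteins, was at 38.7 in N, 51.1 in αA and 59.8 in PαA. Each library was higher than the one named before it, by 0.40 (0.29 to 0.51) and 0.23 (0.13 to 0.33) on the log2 scale, and PαA against N reached 0.63 (0.52 to 0.73), the 1 member past 1.5-fold upward. Against genes of like exon length the *Sdf2l1* ratios were 0.41 for αA against N, 0.08 for PαA against αA and 0.49, below 1.5-fold, for PαA against N. By TPM its PαA to αA ratio was 0.06. *Creld2*, an ER stress-responsive disulfide-exchange protein, was at 24.6, 26.9 and 32.0, with αA against N within counting error. *Manf*, an ER-resident neurotrophic factor, was at 40.9, 42.4 and 44.6, and its small ratios of 0.05 and 0.07 turned in sign by TPM in PαA against αA. The model of *Manf* overlaps *Rbm15b* and *Dcaf1*, whose reads it may share.

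The J-domain cofactors of BiP and its nucleotide exchange factor differed little. *Dnajb11* was at 31.9, 31.0 and 27.9, *Dnajb9* at 16.6, 16.5 and 15.8, and *Dnajc3*, which encodes the ERdj6 cofactor also called p58IPK, at 24.4, 19.7 and 18.9. *Hyou1*, the exchange factor, was at 29.7, 24.4 and 22.6. *Dnajc3* and *Hyou1* were lower in αA than in N by -0.31 and -0.28 on the log2 scale. With TMM factors these became -0.15 and -0.12, and against genes of like length -0.08 and -0.06.

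By RPKM the lectin chaperones and most disulfide isomerases were lowest in PαA. *Calr* differed by -0.11 (-0.13 to -0.08) and -0.14 (-0.17 to -0.12) on the log2 scale in the 2 comparisons. *Canx*, the membrane-bound calnexin, was at 94.6, 87.1 and 77.4 and differed by -0.12 and -0.17. With TMM factors the αA to N ratios of both turned positive, at 0.06 and 0.04. *Pdia4* (chr6:47796141-47813430, minus strand), an isomerase of the BiP and GRP94 complex, had the widest range of this group, with an RPKM of 92.5 in N, 74.4 in αA and 53.9 in PαA. Its log2 ratios of -0.32 (-0.37 to -0.26) and -0.46 (-0.53 to -0.40) were nearly those of *Hsp90b1*, and PαA against N was -0.78 (-0.84 to -0.72). On every scale computed *Pdia4* was lowest in PαA and highest in N.

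*Pdia6*, another isomerase, was at 92.7, 95.5 and 76.0, so only PαA was low, at -0.33 (-0.39 to -0.27) against αA. *Pdia3* differed by -0.06 and -0.16, and with TMM factors by 0.10 and -0.09. *P4hb*, the founding protein disulfide isomerase, was the exception, at 126, 125 and 131, with 0.07 (0.03 to 0.11) for PαA against αA.

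The 4 genes of ER-associated degradation were below αA in PαA, with a median log2 ratio of -0.38, though *Herpud1* was within counting error and above it with TMM factors. Of all expressed genes, 3986 of 7004 lay below αA. The median of the 4 was -0.20 against genes of like length, and that of 13 further degradation genes was -0.05, with 5 higher and 8 lower. *Edem1* (chr6:108828641-108859356, plus strand), a lectin that picks misfolded glycoproteins for disposal, had an RPKM of 25.9 in N, 32.6 in αA and 20.0 in PαA. αA was the highest and PαA the lowest, with log2 ratios of 0.33 (0.28 to 0.39) and -0.71 (-0.77 to -0.64). This gene of long exons lay above the median of genes of like length in αA against N by 0.61 and below it in PαA against αA by -0.49, so that the PαA call past 1.5-fold was lost by the centring.

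*Syvn1*, which encodes the ubiquitin ligase HRD1, was at 13.2, 12.3 and 9.04, and *Sel1l*, its adaptor, at 14.5, 12.03 and 9.73. Their log2 ratios of PαA to αA were -0.44 (-0.57 to -0.32) and -0.31 (-0.40 to -0.21). The value for *Sel1l* came to -0.08 against genes of like exon length. *Herpud1*, an ER stress-induced scaffold of the same complex, differed little, at 38.0, 42.2 and 41.5, and its PαA to αA ratio of -0.03 (-0.11 to 0.06) turned to 0.04 with TMM factors. The 4 genes together had a TMM median of -0.31.

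The translocation channel was led by *Sec61b* (chr4:47474658-47483242, plus strand), its small beta subunit, at an RPKM of 166 in N, 173 in αA and 238 in PαA. PαA was the high library, at a log2 ratio of 0.46 (0.39 to 0.53) against αA, and 0.50 from unique reads, which were between 70.9% and 72.3% of its exon reads. *Sec61a1*, the pore subunit, was at 85.9, 74.4 and 72.6 and so highest in N. *Tram1*, a membrane protein beside the channel, was at 110.0, 121 and 119. For *Sec61g*, at 43.0, 42.5 and 47.4, between 4.81% and 6.70% of the reads were unique, so its level may come from copies elsewhere in the genome and is uncertain.

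The TRAP complex, which assists the entry of some signal peptides, was not uniform. *Ssr4* (delta subunit) was at 115, 116 and 142 and *Ssr3* (gamma) at 49.3, 42.1 and 50.7, both higher in PαA than in αA, by 0.30 (0.22 to 0.37) and 0.27 (0.21 to 0.33) on the log2 scale. *Ssr1* (alpha), with the longest exons of all members at 10431 bases, was at 23.9, 19.7 and 16.5. *Ssr2* (beta) was at 55.9, 52.4 and 50.2. The 2 subunits that were lower in PαA kept no common sign on other scales, since *Ssr1* came to 0.03 against genes of like length and *Ssr2* to 0.01 with TMM factors.

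In the signal recognition particle, which carries ribosomes to the ER, *Srp9* stood out at 95.3, 87.9 and 117. PαA was the highest, at 0.42 (0.35 to 0.48) against αA, while its heterodimer partner *Srp14*, at 89.6, 97.3 and 96.9, gave -0.01 (-0.08 to 0.07). The signal peptidase genes stayed close, with *Spcs2* at 88.1, 86.9 and 92.3, *Spcs1* at 79.8, 75.2 and 67.7 and *Spcs3* at 65.3, 53.4 and 58.2. The KDEL receptors, which bind the retrieval signal of BiP, GRP94 and the isomerases, were nearly level across the libraries by RPKM. *Kdelr1* was at 70.0, 73.2 and 70.5, and *Kdelr2* at 32.2, 32.9 and 33.8. With TMM factors their log2 ratios were 0.23 and 0.20 for αA against N and 0.01 and 0.10 for PαA against αA. For PαA against N they were 0.24 and 0.30. Between 68.3% and 72.6% of the *Kdelr1* reads were unique, and its model overlaps *Grin2d* on the other strand.

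Ratios ran with exon length among all expressed genes, and the members are set against this run. In the decile of expressed genes with the shortest exons (204 to 1215 bases) the median log2 ratio was 0.03 for αA against N and 0.20 for PαA against αA, and in the decile with the longest (6228 to 19341 bases) it was -0.36 and -0.25. The 13 expressed members over 3000 bases had medians of -0.21 and -0.15, beside -0.21 and -0.17 for all expressed genes of that length. *Sec61b* (712 bases) and *Ssr4* (802 bases) lay with the short genes, and against genes of like length their PαA to αA ratios were 0.23 and 0.09. *Ddit3*, at 890 bases, was low in PαA among short genes that were mostly higher there. *Hsp90b1* (2825 bases), *Pdia4* (2399 bases), *Atf4* (1724 bases) and *Hspa5* (3761 bases) were lower in PαA than in αA against genes of like length too, by -0.44, -0.45, -0.26 and -0.31.

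**Figure D3:**
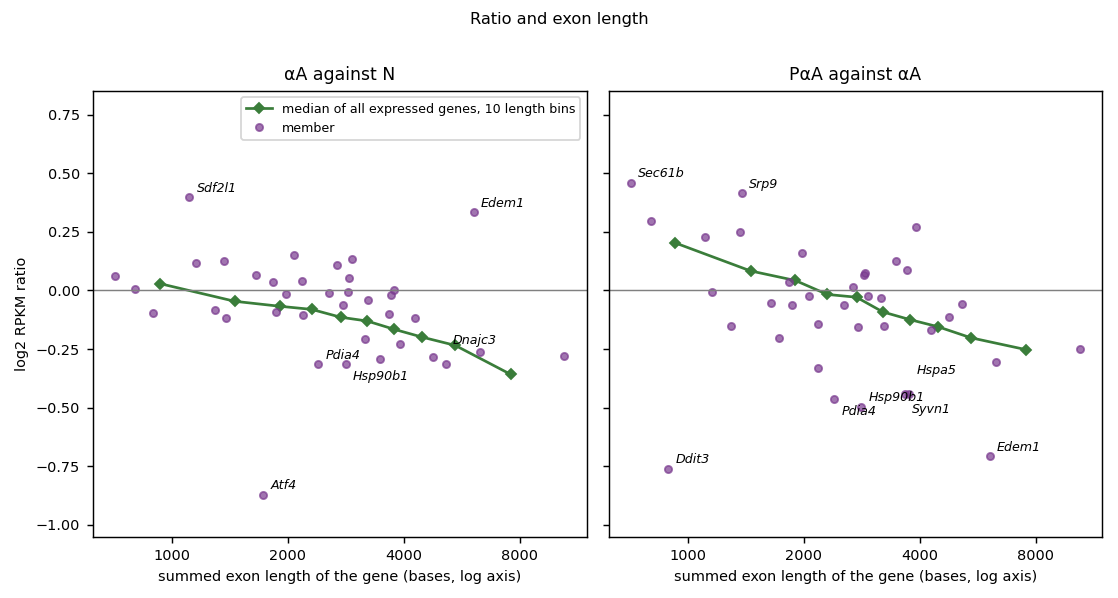
log2 RPKM ratio against summed exon length (log axis) for the 37 expressed members (purple), αA to N on the left and PαA to αA on the right, with the medians of all expressed genes in 10 length bins (green). The green medians run from 0.03 to -0.36 on the left and from 0.20 to -0.25 on the right, with *Atf4* well below them on the left and *Ddit3*, *Edem1*, *Pdia4* and *Hsp90b1* on the right.

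Intron reads are a readout that the exon levels do not contain, and they may come from unspliced RNA. The intronic share of all gene reads was 3.01%, 4.56% and 3.29%, highest in αA. Between αA and N, 11 expressed members had at least 50 intron reads over both libraries, with a median log2 ratio of 0.37 beside 0.29 for the 3741 expressed genes with as many. Between PαA and αA, 12 such members had a median of -0.13 beside -0.29 for 3586 genes, and between PαA and N of 0.44 beside 0.04 for 3365 genes. *Ddit3* had 43, 151 and 88 intron reads, in the order N, αA and PαA, which was 9.86%, 30.9% and 32.1% of its gene reads. N was low and αA high, at a log2 ratio of 1.94 (1.44 to 2.46), while its exon reads did not differ beyond counting error between these libraries. *Ddit3* overlaps *Mars* on the other strand by 68 bases.

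*Eif2ak3* followed its exon reads, with 114, 203 and 83 intron reads and log2 ratios of 0.96 (0.62 to 1.30) and -1.19 (-1.58 to -0.82). *Atf6* did not, with 63, 134 and 44, at 1.21 (0.77 to 1.67) for αA against N, where its exon ratio was negative. For *Hsp90b1*, with 67, 33 and 30 intron reads, N was high, at -0.90 (-1.54 to -0.27) for αA against N, and for *Pdia4*, with 53, 42 and 15, PαA was low, at -1.39 (-2.35 to -0.51) against αA. These counts are small, and the whole library of αA held more intron reads than N by 0.56 on the log2 scale.

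Other genes of the pathway were taken from 7 lists. None of the 7 had a median log2 ratio beyond -0.27 or 0.12 in αA against N or PαA against αA. Of the oligosaccharyltransferase, which adds sugars to entering proteins, all 12 genes were expressed and 0 passed 1.5-fold in these 2 comparisons. Its extremes between αA and N were *Ostc* at 0.36 and the catalytic subunit *Stt3b* at -0.36, and *Krtcap2*, at an RPKM of 67.3, 81.7 and 112, reached 0.45 against αA in PαA and 0.73 against N. *Dad1* was lowest in PαA against αA at -0.13.

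In oxidative folding, *Ero1l*, the oxidase that recharges disulfide isomerases, was at an RPKM of 15.0, 9.14 and 15.5 and so lowest in αA. *Prdx4*, an ER peroxidase, was at 17.0, 13.9 and 27.6 and was highest in PαA, at a log2 ratio of 0.99 against αA. The other ends of this list were close to 0, with *Erp29* at 0.19 for αA against N and *Erp44* at -0.11 for PαA against αA.

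In targeting and translocation, *Sec63*, which brings BiP to the channel, was at 5.06, 2.73 and 1.65, a log2 ratio of -1.62 for PαA against N and the lowest of its list. *Srp19*, of the signal recognition particle, was its highest in αA against N at 0.29, and *Sec11c*, a catalytic subunit of the signal peptidase, in PαA against αA, at 135, 111 and 153. In transport to the Golgi, *Sec16a*, which marks ER exit sites, was the lowest of 25 expressed genes in all 3 comparisons. It was at 9.08, 6.51 and 3.84, and -1.24 for PαA against N. With TMM factors the PαA to N ratios were -1.39 for *Sec63* and -1.01 for *Sec16a*. The exons sum to 6032 bases in *Sec63* and 8799 in *Sec16a*. The median PαA to N ratio of all expressed genes was -0.47 at 4882 to 6226 bases and -0.63 at 6228 to 19341 bases. *Sar1b*, a coat GTPase, was highest in αA against N at 0.16, and *Tmed2*, a cargo receptor, in PαA against αA at 0.33. In further ER-associated degradation, *Os9*, a lectin of the HRD1 complex, was lowest in αA against N at -0.46 and *Derl1*, a channel component, highest at 0.04. *Ube2g2*, a ubiquitin-conjugating enzyme, was highest in PαA against αA at 0.49, and *Vcp*, the ATPase that extracts clients, lowest at -0.36, from reads of which 12.1% were unique over the 3 libraries.

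Of 24 listed targets of ATF4 and CHOP, the 15 expressed ones had a median close to that of all genes. Some of those that stayed below an RPKM of 5 differed more. *Asns* was at 3.26, 1.62 and 4.24, *Sesn2* at 3.92, 2.52 and 3.93, and *Trib3* at 0.23, 1.11 and 2.17. The *Trib3* levels rest on 14, 61 and 112 reads. *Atf5* hardly differed, at 4.10, 3.81 and 4.02. The remaining targets below 5 had few reads. These were 9, 31 and 15 for *Atf3*, 34, 13 and 26 for *Slc7a11*, and 12, 17 and 14 for *Nupr1*. *Chac1* had 0, 0 and 7 reads, and *Vldlr* 10, 0 and 0. Of 15 expressed genes, 0 were higher (3.01% of all expressed genes) and 2 lower (10.9%) by more than 1.5-fold in αA than in N, with a median log2 ratio of -0.15 beside -0.14 for all expressed genes. The 2 were *Cebpb*, a leucine zipper factor, at 13.7, 7.01 and 7.68, and *Slc7a1*, an arginine transporter, at 6.38, 3.50 and 4.97. *Ddit4*, a stress inhibitor of mTORC1, was the highest of the list in PαA against αA, at 220, 231 and 348 and a log2 ratio of 0.59, and *Phgdh*, of serine synthesis, the lowest at -0.60 after being highest in αA against N at 0.22. In PαA against αA, 1 of the 15 was higher by more than 1.5-fold (5.43% of all) and 2 were lower (9.15%), *Phgdh* and *Ppp1r15a*, a phosphatase subunit induced by CHOP, at -0.59. Of the 21 cytosolic and mitochondrial chaperones, 3 were lower in αA than in N by more than 1.5-fold, the heat-inducible *Hspa1a*, *Hspa1b* and *Bag3*, beside 10.9% of all expressed genes, while *Hspe1*, a mitochondrial co-chaperonin, was highest at 0.41. *Hspa1b*, with 32.5% unique reads, was at 15.1, 8.33 and 15.4 and was the highest of the list in PαA against αA at 0.88, and *Hsp90ab1*, the constitutive cytosolic HSP90, the lowest at -0.53. *Hspa1a* was at 6.59, 3.55 and 3.10 and was the 1 gene of that list past 2-fold in PαA against N, with 14.2% unique reads over the 3 libraries.

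**Figure D4:**
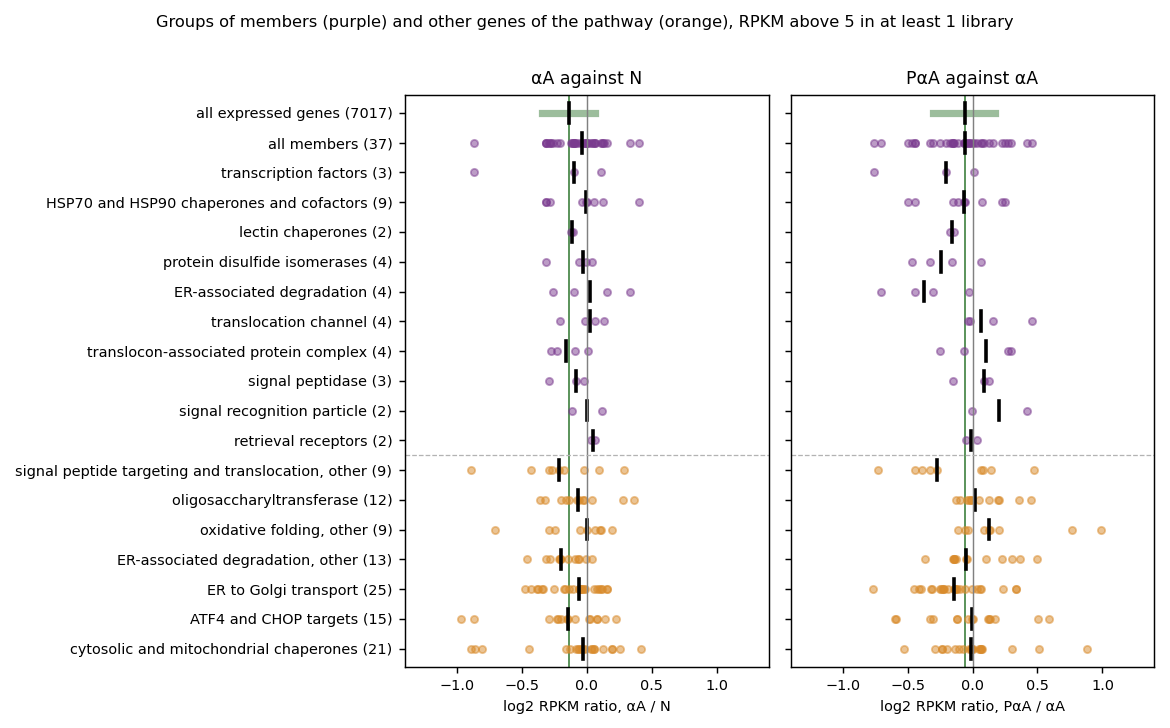
log2 RPKM ratios of expressed genes in αA against N (left) and PαA against αA (right), for the role groups of the members (purple) and 7 lists of other pathway genes (orange), with the number of expressed genes in brackets. Black bars are medians, the green line is the median of all 7017 expressed genes and the green bar their middle quartiles. Most medians lie near the green line, and the 4 genes of ER-associated degradation have the lowest at -0.38 on the right.

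Plasma cells use these genes at high levels, and some of their markers stood higher in PαA. *Jchain*, the joining chain of secreted antibodies, was at 44.3 in N, 58.4 in αA and 94.8 in PαA. *Sdc1*, which encodes CD138, was at 0.74, 1.03 and 5.97, and *Mzb1*, a plasma cell ER cofactor, at 4.01, 6.69 and 6.94. For *Mzb1* PαA and αA were alike within counting error, at a log2 ratio of 0.05 (-0.27 to 0.38). *Derl3*, a degradation gene of secretory cells, had 38, 25 and 39 reads, and *Tnfrsf17*, the receptor BCMA, had 5, 21 and 0. The summed level of the 6 usable markers, most of it from *Jchain*, was highest in PαA. In that library *Hspa5*, *Hsp90b1*, *Pdia4* and *Edem1* were lowest and *Sec61b*, *Sdf2l1* and *Creld2* highest. The sort after CD4 enrichment took B220-, CD4+, Blimp-GFP+, CXCR5+ and GITRhi cells. The part of plasma cells in these levels was not tested.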

How the data were processed

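TFR cells of 3 genotypes gave 1 RNA-seq library each. The authors made poly(A) libraries and, in CLC Genomics Workbench at default settings, mapped adapter-trimmed single reads to GRCm38 and summed them over genes. The annotation release is not given in the sources used here. The deposited values are whole counts of total and unique exon reads and of intron reads, not normalized, with RPKM and TPM (written with decimal commas, so that their unit was entered as other). Libraries were assigned to genotypes from the labels. Of 25759 genes, 3715 without exon length were left out. Whether counting used strand is not stated.

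The 40 members, their role groups, the 7 pathway and 5 marker lists were chosen with earlier results of these data known. The named genes are all members and, of each pathway list, the highest and lowest expressed gene in αA against N and PαA against αA. Expressed pathway genes past 2-fold are named too. Beyond this rule, expressed ATF4 and CHOP targets and cytosolic and mitochondrial chaperones past 1.5-fold in these 2 comparisons are named. The ATF4 and CHOP targets below an RPKM of 5 are also given. Marker genes are given as lists with some defining genes. A level counted as expressed above an RPKM of 5 in at least 1 library, and calls were set at 1.5-fold and 2-fold. Ratios are of exon reads per library total, which was recovered from reads, exon length and RPKM (29726219 for N, 27239921 for αA and 25465829 for PαA), with exact Clopper-Pearson intervals at 95%, and levels have Poisson intervals. Alternatives were TPM, TMM factors (edgeR 4.0.16, R 4.3.3, used for factors only), size factors, unique reads, other filters, a pseudocount of 1 RPKM and centring on exon length by lowess (fraction 0.3). Tables were handled in pandas 2.3.3 and numpy 2.4.6 (Python 3.11.15), intervals came from scipy 1.17.1, lowess from statsmodels 0.14.6 and figures from matplotlib 3.10.9. Ratios, intervals, calls and centring were tested on simulated counts. Promoters are RefSeq windows (GRCm38.p6). Protein sequences were not used here.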

Additional observations from a re-analysis of the deposited data

How the results depend on the processing

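The alternatives were fixed with earlier results of these data known, and with 1 library per genotype no replicate can be left out. No paired analysis was possible because each genotype has 1 library and no result comes from a test. The median log2 ratio of the members in αA against N, -0.04 by RPKM, was 0.121 with TMM factors, 0.132 with size factors and 0.064 centred on exon length. In PαA against αA it went from -0.06 to -0.222 by TPM. In PαA against N, -0.17 by RPKM, it turned to 0.062 with TMM factors, 0.077 with size factors and 0.062 when centred, and was -0.389 by TPM. Of αA against N, the members higher by more than 1.5-fold became 1 when centred, those lower became 2 by TPM, 2 by unique reads, 3 with a filter of RPKM above 1 and 3 with no filter, and those past 2-fold became 1 with either filter. Of PαA against αA, the members lower became 7 by TPM and 1 when centred, and those past 2-fold 1 by TPM, 1 with RPKM above 1 and 1 with no filter, since *Eif2ak3* then counts. Of PαA against N, the members higher became 0 by TPM, 3 with TMM factors, 3 with size factors and 0 when centred. Those lower became 11 by TPM, 2 with TMM factors and 2 with size factors. Those past 2-fold became 3 by TPM, 0 with TMM or size factors, 2 when centred, 2 with RPKM above 1 and 2 with no filter. TMM factors changed the sign of 13, 9 and 5 of the 40 single ratios in αA against N, PαA against αA and PαA against N. The filters change counts because they admit the sensors, and the other causes were not tested. Genes with few reads, such as *Ddit3* with 186 in PαA, have wide counting intervals, and the variation between mice is not measured at all.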
